A study of Mus musculus with 17 samples.

Results

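Lef1 and 8 other genes of Wnt signalling were followed in mouse embryonic stem cells whose ribosomes at the endoplasmic reticulum (ER) had been isolated after siRNA against Nmd3 or Gnl3. The 9 genes were taken by name from the 55416 genes in the count files: the TCF/LEF factors Lef1, Tcf7, Tcf7l1 and Tcf7l2, the beta-catenin gene Ctnnb1, the feedback targets Axin2, Sp5 and Nkd1, and the ligand gene Wnt3. All 9 were found, and all 9 passed the filter on low counts in every fit. In the annotation Lef1 (ENSMUSG00000027985.15) lies on chromosome 3, Tcf7, Axin2 and Wnt3 on 11, Tcf7l1 on 6, Tcf7l2 on 19, Ctnnb1 on 9, Sp5 on 2 and Nkd1 on 8, and each is protein-coding.

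All cells were E14Tg2a.4 mouse embryonic stem cells of the line Rpl31-FTA, whose Rpl31, a protein of the large ribosomal subunit, is tagged with FLAG-TEV-AviTag. They were grown in medium with 15% serum and 1000 U/mL leukemia inhibitory factor. ALIBi, a method of proximity biotinylation, marked the tagged ribosomes at the ER in every group, and polyA RNA bound to the marked, affinity-purified ribosomes was sequenced. Whole-cell polyA RNA came from the input lysate of each purification. ER ribosome-bound RNA was available from cells given Nmd3 siRNA (3 libraries), Gnl3 siRNA (3 libraries) or scramble siRNA (2 libraries, replicates 2 and 3; replicate 1 was not analysed here). Whole-cell RNA was available from the same treatments with 3 libraries each. The labels state that the submitters excluded Nmd3 whole-cell replicate 2 and Gnl3 whole-cell replicate 3 as outliers of a principal component analysis. These 2 libraries were left out of the comparisons, so the Nmd3 and Gnl3 whole-cell groups had 2 libraries each, and their values are given beside the results they touch. The replicates are labelled as biological replicates of 1 line, and how the cultures were separated is not given in the sources used here, so p-values measure the spread between these samples.

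Wnt proteins are secreted ligands that bind Frizzled and Lrp5 or Lrp6 receptors at the cell surface. In cells without the signal a cytosolic complex built on Axin and Apc marks beta-catenin for degradation, and with the signal beta-catenin builds up, enters the nucleus and binds the TCF/LEF factors on DNA. In mouse embryonic stem cells Tcf7l1 is known as a repressor of self-renewal genes whose effect beta-catenin relieves, while Tcf7 and Lef1 are known as partners through which beta-catenin activates transcription. Axin2, Sp5 and Nkd1 are widely used readouts of this activity. Nmd3 is the export adaptor of the large ribosomal subunit, and Gnl3 (nucleostemin) is a nucleolar GTPase with a role in the assembly of that subunit.

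The libraries held 15.2 to 29.9 M counts in genes, and levels are given as CPM, the counts of a gene per 1 M such counts. With its own siRNA, Nmd3 in the ER fraction was 25.2, 24.1 and 25.2 CPM, against 123.7 and 120.0 CPM with scramble siRNA. Likewise, Gnl3 in the ER fraction was 31.6, 26.9 and 29.7 CPM with its siRNA, against 170.0 and 177.4 CPM with scramble siRNA. Each siRNA lowered its target by edgeR's test (log2 fold change -2.29, adjusted p = 2.44e-20, and -2.58, adjusted p = 0.0092), while Nmd3 ER replicate 2 held 262.9 CPM of Gnl3, above every scramble ER library. The 10 markers of embryonic stem cells summed to between 9216 and 10280 CPM on ER ribosomes and between 6662 and 7572 CPM in whole-cell RNA. Lists for primitive streak, primitive endoderm, fibroblasts and 2-cell-like cells each summed to between 10.3 and 40.1 CPM.

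Lef1, which encodes an HMG-box factor that binds DNA together with beta-catenin, was lower after both knockdowns and in both fractions in the libraries used. On ER ribosomes its level was 64.1, 59.8 and 65.4 CPM with Nmd3 siRNA and 61.4, 58.2 and 62.3 CPM with Gnl3 siRNA, against 93.3 and 83.8 CPM with scramble siRNA. In whole-cell RNA it was 51.2 and 60.8 CPM with Nmd3 siRNA and 56.9 and 61.6 CPM with Gnl3 siRNA, against 75.2, 74.3 and 84.0 CPM with scramble siRNA. In each fraction every knockdown library used lay below every scramble library, and the Nmd3 and Gnl3 libraries overlapped each other. Groups held 2 or 3 libraries, and such separations are a description here and below, without their share over all genes. The log2 fold change over scramble siRNA was -0.48 for Nmd3 (SE 0.065) and -0.56 for Gnl3 (SE 0.065) on ER ribosomes, and -0.48 for Nmd3 (SE 0.079) and -0.39 for Gnl3 (SE 0.079) in whole-cell RNA. On ER ribosomes these are 0.716 and 0.679 times the scramble level. In bulk samples fewer cells with Lef1 mRNA and less Lef1 mRNA per cell cannot be told apart.

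RefSeq lists several starts for Lef1, and the 250 bases before each were read from its GRCm38.p6 promoter windows, which all 9 genes matched by symbol. The sequences were searched for the core of the TCF/LEF motif, ACAAAG or TCAAAG on either strand. The letters of the second lie within the longer form ATCAAAG, which was counted apart. Such a match is a description of letters and not a site. Of 32851 windows of this length in the table, 27.6% held at least 1 match, 0.776% at least 3 and 0.0944% at least 4. Of the 15 windows of the 9 genes, 4 held a match (26.7%). Windows 1 and 4 of Lef1 are printed because they are the upstream-most and the one with matches. Capitals mark the matches, which lie 180, 146 and 120 bases before the start of window 4.
Lef1 window 1, plus strand, chr3:131110047-131110296: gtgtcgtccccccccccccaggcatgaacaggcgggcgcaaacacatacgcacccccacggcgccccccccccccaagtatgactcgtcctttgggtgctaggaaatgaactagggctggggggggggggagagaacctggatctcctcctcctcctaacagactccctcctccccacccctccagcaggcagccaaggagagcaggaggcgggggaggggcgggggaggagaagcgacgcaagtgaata
Lef1 window 4, plus strand, chr3:131156044-131156293: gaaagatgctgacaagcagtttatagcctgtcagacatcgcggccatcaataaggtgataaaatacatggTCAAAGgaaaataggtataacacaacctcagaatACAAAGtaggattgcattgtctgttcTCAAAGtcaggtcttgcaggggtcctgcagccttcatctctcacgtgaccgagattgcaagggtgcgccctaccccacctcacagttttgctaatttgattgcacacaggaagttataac

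The 9 genes were chosen by name with the knockdown fold changes of an earlier analysis of these libraries known, and which of those values led to the list is not recorded. The changes of its genes with the knockdowns are therefore given as a description without p-values, and no call among them is read as a result. A gene is called where edgeR's quasi-likelihood test gives an adjusted p under 0.05. Lef1 was the 1 gene of the 9 called in the 4 comparisons with scramble siRNA, which may only restate how the list was chosen, and nothing is read from this count. Over all genes tested on ER ribosomes, 1.17% were called for Nmd3 (0.652% higher, 0.516% lower) and 2.68% for Gnl3 (1.51% higher, 1.17% lower). In whole-cell RNA 0.166% were called for Nmd3 (0.0629% higher, 0.103% lower) and 0.812% for Gnl3 (0.515% higher, 0.297% lower). The Nmd3 and Gnl3 comparisons share their scramble libraries. With each ER library left out in turn, the log2 fold change of Lef1 ranged from -0.56 to -0.40 for Nmd3 and from -0.64 to -0.47 for Gnl3.

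In whole-cell RNA the log2 fold change of Lef1 with 1 library left out ranged from -0.63 to -0.35 for Nmd3 and from -0.45 to -0.34 for Gnl3. The whole-cell call of Lef1 was lost in most such fits for Gnl3 and in some for Nmd3. Of the 2 excluded libraries, Nmd3 replicate 2 held 44.3 CPM, below every whole-cell library used. Gnl3 replicate 3 held 81.4 CPM, within the scramble range of 74.3 to 84.0 CPM. With all 17 libraries the whole-cell log2 fold change was -0.44 for Nmd3 and -0.16 for Gnl3, and 0 genes of the whole table were called in either comparison.

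Between the 2 knockdowns the log2 fold change of Lef1, Nmd3 over Gnl3, was 0.08 (SE 0.059) on ER ribosomes and -0.09 (SE 0.088) in whole-cell RNA. Over all genes tested between the knockdowns, 2.19% were called on ER ribosomes (0.987% higher, 1.21% lower) and 0.212% in whole-cell RNA (0.103% higher, 0.109% lower).

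**Figure D1:**
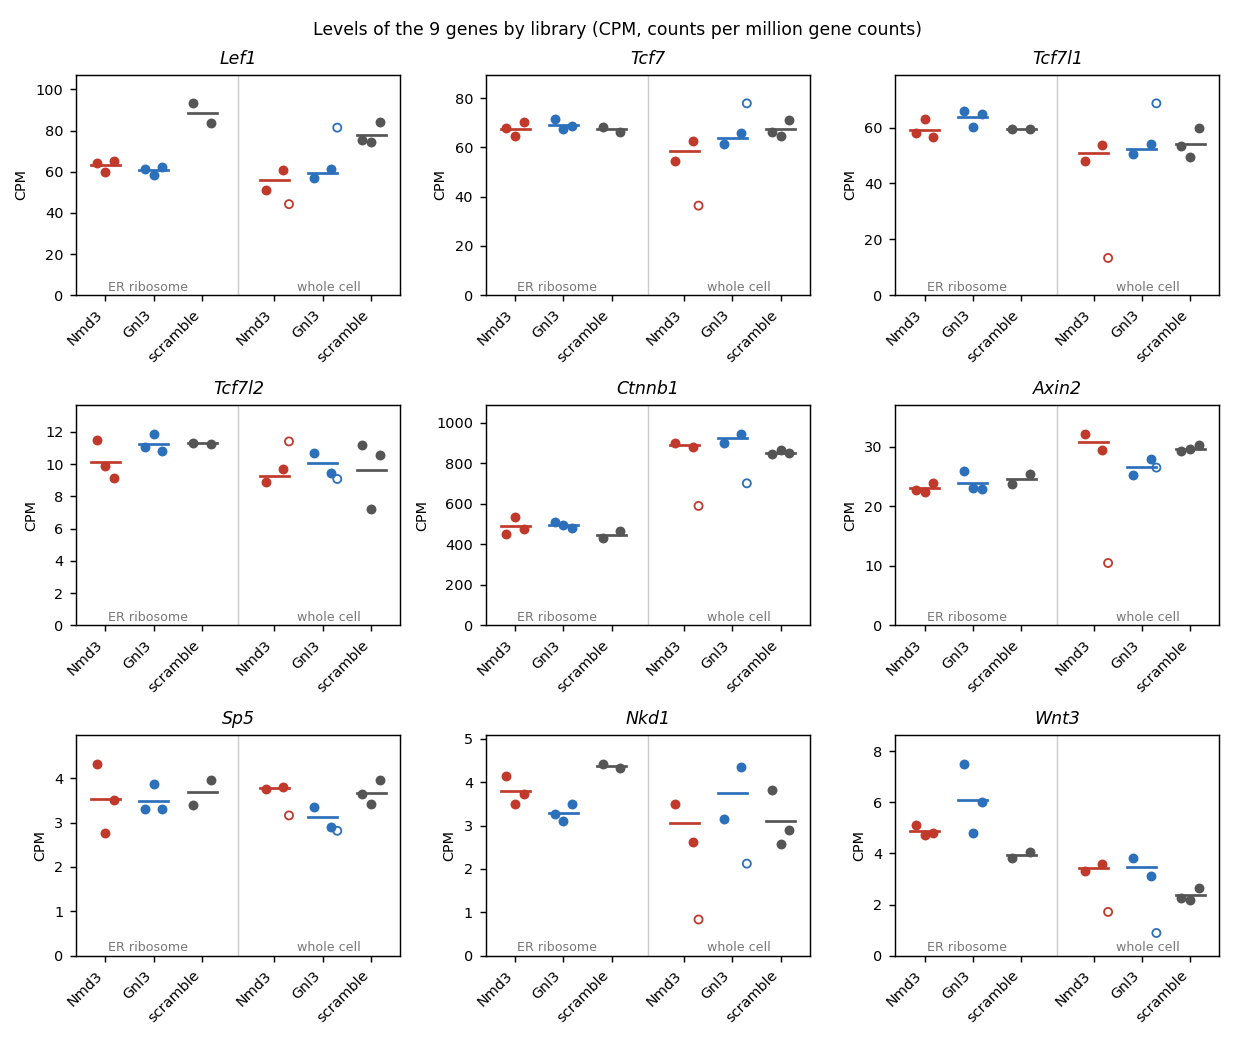
Level of each of the 9 genes in every library, in CPM (y axis, from 0), by siRNA on ER ribosomes (left of the grey line) and in whole-cell RNA (right). Filled points are libraries used in the comparisons, bars are their group means, and open points are the 2 whole-cell libraries the submitters excluded; Lef1 lay below scramble in every filled knockdown library of both fractions, and Ctnnb1 was lower on ER ribosomes than in whole-cell RNA in every siRNA group.

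Reads of Lef1 may be shared with a gene on the other strand. The annotation (GENCODE M21) places Gm43352 opposite Lef1, with 1208 bases of shared exon, and although the library kit keeps strand, the strand setting of counting is not given in the sources used here. Gm43352 stood at 13.8, 11.95 and 15.3 CPM with Nmd3 siRNA and 15.6, 13.3 and 14.3 CPM with Gnl3 siRNA on ER ribosomes, against 20.1 and 17.6 CPM with scramble siRNA. Its log2 fold changes over scramble were -0.46 for Nmd3 and -0.40 for Gnl3 on ER ribosomes and -0.48 and -0.39 in whole-cell RNA. These are close to those of Lef1, and whether the 2 genes' counts come from the same transcripts was not tested.

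The genes whose levels were most like those of Lef1 over the 15 libraries were ranked by Pearson's r on log2 CPM, with the mean of each fraction subtracted, among 11522 genes of at least 5 CPM. The highest were Rps6ka6, a kinase of the RSK family (r = 0.94), Gm43352 (0.93), the ubiquitin-conjugating enzyme gene Ube2e1 (0.92), Bex4 (0.92) and LTO1 (0.91). The lowest were Bcam, which encodes a cell surface adhesion protein (-0.94), Nop16, which encodes a nucleolar protein (-0.93), and Txlna (-0.92). These r values describe 15 libraries that fall into knockdown and scramble groups and share their treatment, and they carry no test. Relative to the scramble mean of the same fraction, the single knockdown libraries held between 65.8% and 79.1% of Lef1, between 75.3% and 91.7% of Ube2e1 and between 82.8% and 92.7% of Rps6ka6. For Nop16 the same libraries held between 126.1% and 138.0%. The list is not firm: with all 17 libraries 1 of the 5 highest genes was the same. The r was then 0.93 for Rps6ka6, 0.67 for Gm43352, 0.26 for Ube2e1, -0.22 for Bex4 and 0.39 for LTO1. For Bcam, Nop16 and Txlna it was -0.23, -0.91 and -0.12.

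**Figure D2:**
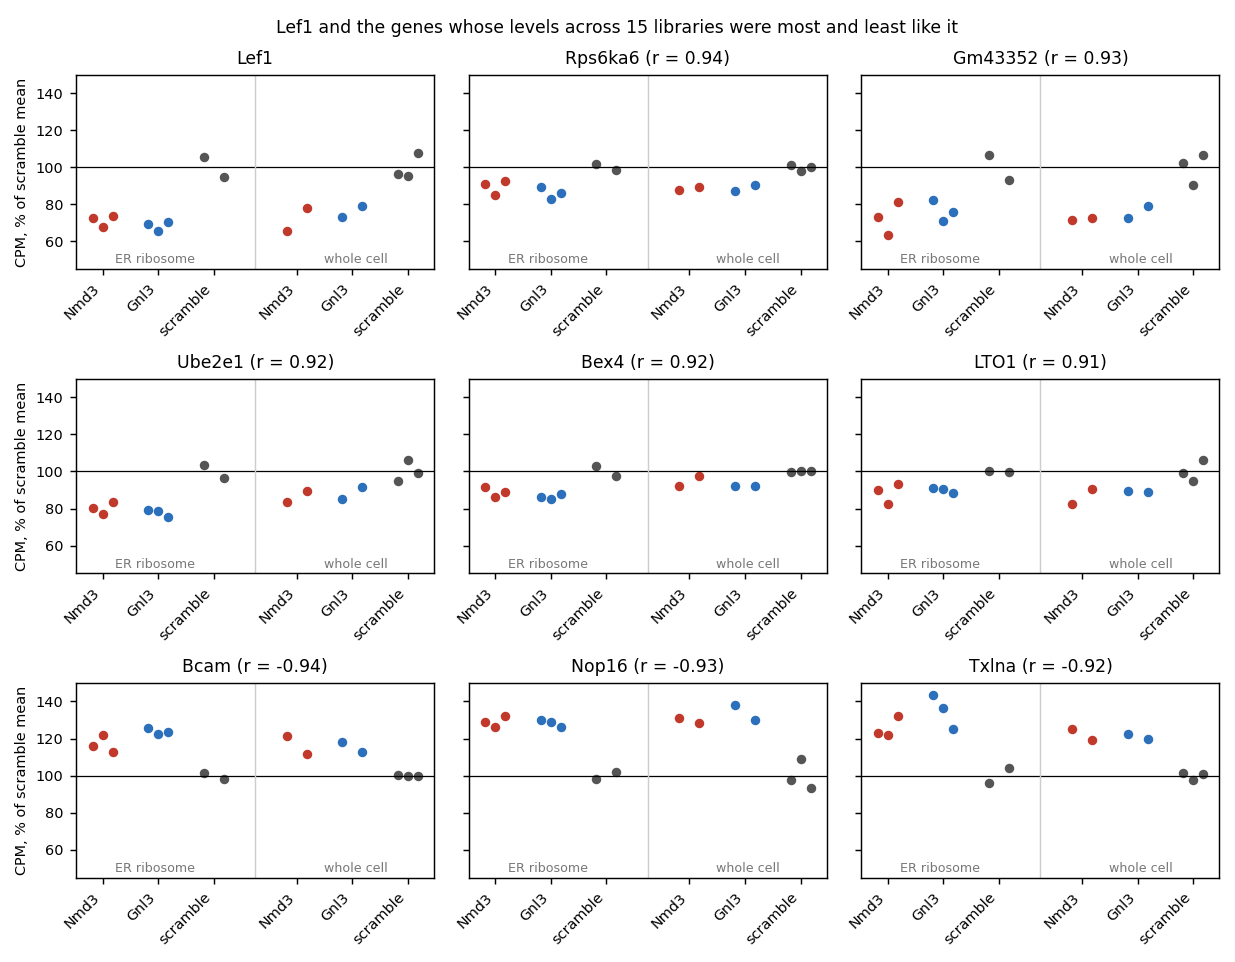
CPM as a percentage of the scramble mean of the same fraction (y axis, from 45%) for Lef1, the 5 genes with the highest r and the 3 with the lowest r, in each of the 15 libraries used. Points are libraries, by siRNA on ER ribosomes (left of the grey line) and in whole-cell RNA (right); the knockdown libraries of Lef1 lay between 65.8% and 79.1%, and those of Nop16 between 126.1% and 138.0%.

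The other 3 TCF/LEF factors showed smaller differences than Lef1. Tcf7, which encodes TCF1, stood at 67.8, 64.6 and 70.3 CPM with Nmd3 siRNA and 71.4, 67.3 and 68.9 CPM with Gnl3 siRNA on ER ribosomes, against 68.4 and 66.3 CPM with scramble siRNA. The groups overlapped there, with log2 fold changes of 0.01 for Nmd3 (SE 0.062) and 0.03 for Gnl3 (SE 0.062). In whole-cell RNA Tcf7 was 54.5 and 62.7 CPM with Nmd3 siRNA and 61.5 and 65.7 CPM with Gnl3 siRNA, against 66.1, 64.7 and 71.3 CPM with scramble siRNA. Both Nmd3 libraries lay below the scramble libraries, with a log2 fold change of -0.21 (SE 0.075), while the Gnl3 libraries overlapped them.

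Tcf7l1, which encodes the repressor TCF3, was 57.9, 63.1 and 56.6 CPM with Nmd3 siRNA and 65.8, 60.3 and 65.0 CPM with Gnl3 siRNA on ER ribosomes, against 59.4 and 59.6 CPM with scramble siRNA. The Gnl3 libraries lay just above scramble, with a log2 fold change of 0.09 (SE 0.069), and the Nmd3 libraries lay on both sides of it (0.00, SE 0.070). In whole-cell RNA all 3 groups of Tcf7l1 overlapped, with log2 fold changes of -0.10 for Nmd3 (SE 0.082) and -0.05 for Gnl3 (SE 0.082). Tcf7l2, which encodes TCF4 and was the least abundant TCF/LEF factor, ranged from 9.13 to 11.9 CPM on ER ribosomes and from 7.23 to 11.2 CPM in whole-cell RNA. Its groups overlapped in each of the 4 comparisons with scramble siRNA, with log2 fold changes from -0.15 to 0.07. In the excluded Nmd3 whole-cell replicate 2, Tcf7l1 stood at 13.3 CPM and Tcf7 at 36.4 CPM, lower than in any library used. In the excluded Gnl3 whole-cell replicate 3, Tcf7l1 stood at 68.7 CPM and Tcf7 at 77.9 CPM.

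Ctnnb1, which encodes beta-catenin, stood at 452.4, 536.1 and 476.3 CPM with Nmd3 siRNA and 507.9, 493.0 and 481.6 CPM with Gnl3 siRNA on ER ribosomes, against 430.0 and 465.8 CPM with scramble siRNA. In whole-cell RNA it stood at 901.1 and 880.4 CPM with Nmd3 siRNA and 900.6 and 945.9 CPM with Gnl3 siRNA, against 843.7, 862.6 and 849.2 CPM with scramble siRNA. Every used whole-cell knockdown library lay above the scramble ones, yet the log2 fold changes were small, 0.06 for Nmd3 and 0.12 for Gnl3 (SE 0.053 each). On ER ribosomes they were 0.13 for each siRNA (SE 0.072), with the Nmd3 libraries overlapping scramble. The excluded libraries went the other way, with 589.1 CPM in Nmd3 whole-cell replicate 2 and 700.6 CPM in Gnl3 whole-cell replicate 3, below every scramble whole-cell library.

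The feedback targets are given next. Axin2, which encodes a scaffold of the complex that degrades beta-catenin, was 22.8, 22.4 and 23.9 CPM with Nmd3 siRNA and 25.9, 23.0 and 22.9 CPM with Gnl3 siRNA on ER ribosomes, against 23.7 and 25.4 CPM with scramble siRNA. The groups overlapped, and the log2 fold changes were -0.09 for Nmd3 (SE 0.092) and -0.05 for Gnl3 (SE 0.091). In whole-cell RNA Axin2 was 32.2 and 29.5 CPM with Nmd3 siRNA and 25.3 and 28.0 CPM with Gnl3 siRNA, against 29.3, 29.6 and 30.2 CPM with scramble siRNA. Both Gnl3 libraries lay below the scramble libraries (log2 fold change -0.15, SE 0.090), and the Nmd3 libraries lay on both sides of them (0.05, SE 0.089). The excluded libraries held less Axin2 than any scramble whole-cell library, with 10.5 CPM in Nmd3 replicate 2 and 26.5 CPM in Gnl3 replicate 3.

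Sp5, which encodes a zinc finger factor of the Sp family, held 51 to 116 counts per library and ranged from 2.75 to 4.33 CPM on ER ribosomes and from 2.89 to 3.95 CPM in whole-cell RNA. Its log2 fold changes over scramble lay between -0.24 (Gnl3, whole-cell RNA, SE 0.214) and 0.03 (Nmd3, whole-cell RNA, SE 0.207). Nkd1, which encodes an inhibitor that binds Dishevelled, was 4.15, 3.49 and 3.72 CPM with Nmd3 siRNA and 3.26, 3.11 and 3.49 CPM with Gnl3 siRNA on ER ribosomes, against 4.43 and 4.34 CPM with scramble siRNA. Both knockdown groups of Nkd1 lay below scramble there, with log2 fold changes of -0.21 for Nmd3 (SE 0.196) and -0.43 for Gnl3 (SE 0.196). In whole-cell RNA they overlapped scramble, at -0.02 for Nmd3 (SE 0.240) and 0.30 for Gnl3 (SE 0.231). With 46 to 93 counts per library, differences of this size in Nkd1 were not resolved. In the excluded libraries Nkd1 was 0.834 CPM (Nmd3 replicate 2) and 2.12 CPM (Gnl3 replicate 3), and Sp5 was 3.16 and 2.81 CPM.

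The windows before the starts of Sp5 and Axin2 are set beside each other because both genes are used as readouts of TCF/LEF activity and they differ in the letters searched. Sp5 held 4 matches, 221, 212, 204 and 104 bases before its start, and the longer form ATCAAAG, which 3.21% of all windows hold. Axin2 held none, which says only that these letters are not in this window.
Sp5, plus strand, chr2:70474673-70474922: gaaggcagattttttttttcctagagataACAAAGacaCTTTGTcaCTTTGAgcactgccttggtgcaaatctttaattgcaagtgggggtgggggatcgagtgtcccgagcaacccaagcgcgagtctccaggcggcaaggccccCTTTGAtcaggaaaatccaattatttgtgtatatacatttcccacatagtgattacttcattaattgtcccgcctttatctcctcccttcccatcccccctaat
Axin2, plus strand, chr11:108920099-108920348: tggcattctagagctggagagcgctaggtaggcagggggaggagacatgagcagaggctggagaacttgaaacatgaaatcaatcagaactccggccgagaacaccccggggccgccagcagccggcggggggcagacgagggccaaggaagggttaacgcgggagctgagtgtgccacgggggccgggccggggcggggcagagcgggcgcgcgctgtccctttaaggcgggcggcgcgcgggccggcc

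Wnt3, the 1 secreted ligand among the 9, was higher after both knockdowns in the libraries used, at low counts. On ER ribosomes it was 5.11, 4.72 and 4.79 CPM with Nmd3 siRNA and 7.51, 4.82 and 6.0 CPM with Gnl3 siRNA, against 3.83 and 4.07 CPM with scramble siRNA. In whole-cell RNA it was 3.31 and 3.58 CPM with Nmd3 siRNA and 3.82 and 3.11 CPM with Gnl3 siRNA, against 2.26, 2.19 and 2.64 CPM with scramble siRNA. No knockdown library used overlapped the scramble libraries of its fraction. The share of all genes with such a separation was not counted, and Wnt3 was not called in any comparison with scramble siRNA. The log2 fold changes were 0.31 for Nmd3 (SE 0.201) and 0.61 for Gnl3 (SE 0.195) on ER ribosomes and 0.53 (SE 0.230) and 0.54 (SE 0.231) in whole-cell RNA. Wnt3 held 36 to 166 counts per library, and the excluded libraries went the other way, with 1.71 CPM in Nmd3 replicate 2 and 0.889 CPM in Gnl3 replicate 3.

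**Figure D3:**
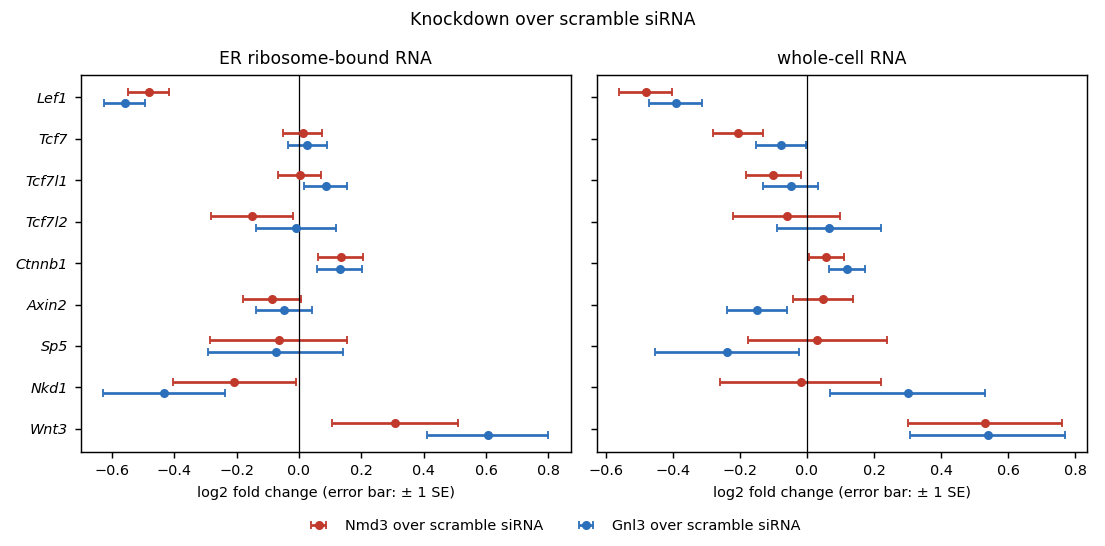
Log2 fold change (x axis) of the 9 genes with Nmd3 siRNA (red) or Gnl3 siRNA (blue) over scramble siRNA, on ER ribosomes (left) and in whole-cell RNA (right). Points are the fitted values and bars ± 1 SE; Lef1 lay between -0.56 and -0.39 in the 4 comparisons, and Wnt3 between 0.31 and 0.61 with wider errors.

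Levels of different genes were compared per kilobase of exon (CPM per kb), with lengths from GENCODE M21. On ER ribosomes after scramble siRNA, Ctnnb1 stood at 86.3 ± 4.88 CPM per kb (SD, n = 2), Tcf7 at 25.7 ± 0.555, Tcf7l1 at 15.2 ± 0.0415, Lef1 at 10.1 ± 0.760 and Axin2 at 4.47 ± 0.217. The group means had this order in all 6 groups. In Nmd3 whole-cell RNA, however, Lef1 (6.37 ± 0.771) and Axin2 (5.60 ± 0.355 CPM per kb, SD, n = 2 each) lay within their spread. The other 4 genes, Sp5, Tcf7l2, Wnt3 and Nkd1, averaged between 0.672 and 1.99 CPM per kb over the 6 groups, and neighbours among them often overlapped. With scramble siRNA on ER ribosomes, for example, Tcf7l2 (1.29 ± 0.00564) and Wnt3 (1.28 ± 0.0554 CPM per kb, SD, n = 2 each) lay within their spread.

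The second comparison asked which of the 9 mRNAs were over- or under-represented on ER ribosomes relative to the whole-cell RNA of the lysates. Ctnnb1 was lower on ER ribosomes with each siRNA, Axin2 was lower with Nmd3 and scramble siRNA, and Wnt3 was higher with Gnl3 and scramble siRNA. By edgeR's quasi-likelihood test 4 of the 9 genes were called with Nmd3 siRNA, where 50.1% of all genes were called, 3 with Gnl3 siRNA (48.1% of all genes) and 3 with scramble siRNA (50.3%). The shares of the 9 genes called do not exceed those of all genes. With the 2 excluded libraries in the fit, 1, 2 and 1 of the 9 genes were called with Nmd3, Gnl3 and scramble siRNA. Over all genes 2819, 4540 and 2353 were then called, against 9152, 8795 and 9197 without those libraries.

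The log2 ratio of ER ribosome-bound over whole-cell Ctnnb1 was -0.88 with Nmd3 siRNA (SE 0.054, adjusted p = 1.58e-15), -0.94 with Gnl3 siRNA (SE 0.054, 2.4e-16) and -0.95 with scramble siRNA (SE 0.056, 5.75e-16). ER ribosome-bound libraries thus held 0.545, 0.520 and 0.517 times the whole-cell level, and the ER and whole-cell libraries did not overlap in any siRNA group. Ulk4, which the annotation places opposite Ctnnb1, with 782 bases of Ctnnb1 exon shared with its neighbours, also had lower levels on ER ribosomes. It stood at 175.0 to 210.4 CPM there and 288.5 to 318.9 CPM in whole-cell RNA, and its part in the counts of Ctnnb1 was not tested.

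The Axin2 ratio was -0.43 with Nmd3 siRNA (SE 0.089, adjusted p = 0.000105), -0.20 with Gnl3 siRNA (SE 0.089, adjusted p = 0.0637) and -0.30 with scramble siRNA (SE 0.089, adjusted p = 0.00518). The scramble call was lost without scramble ER replicate 2 (-0.27, adjusted p = 0.0631). Without Gnl3 ER replicate 1 the Gnl3 ratio of Axin2 was -0.26 at an adjusted p of 0.0229. Gm11670, which shares 209 bases of exon with Axin2 on the other strand, stood at 1.44 to 2.82 CPM on ER ribosomes and 2.76 to 4.62 CPM in whole-cell RNA.

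For Wnt3 the ratio was 0.49 with Nmd3 siRNA (SE 0.209, adjusted p = 0.0514), 0.77 with Gnl3 siRNA (SE 0.203, adjusted p = 0.00169) and 0.71 with scramble siRNA (SE 0.218, adjusted p = 0.00675). Its ER libraries lay above the whole-cell libraries in all 3 siRNA groups. The call was lost with Gnl3 siRNA without Gnl3 whole-cell replicate 2 (0.63, adjusted p = 0.0618) and with scramble siRNA without scramble ER replicate 3 (0.65, adjusted p = 0.059).

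The TCF/LEF factors had ratios close to 0. Tcf7l1 was higher on ER ribosomes with Nmd3 siRNA (0.21, SE 0.080, adjusted p = 0.0296) and with Gnl3 siRNA (0.24, SE 0.080, adjusted p = 0.0134), and stood at 0.10 with scramble siRNA (SE 0.079, adjusted p = 0.287). With the culture as a replicate block, which pairs the 2 fractions of a lysate, the Nmd3 value was 0.15 at an adjusted p of 0.151. Leaving out Nmd3 ER replicate 2 (0.15, adjusted p = 0.12), Nmd3 whole-cell replicate 1 (0.11, 0.38), Gnl3 ER replicate 1 (0.21, 0.0562) or Gnl3 whole-cell replicate 1 (0.18, 0.156) also ended a call of Tcf7l1, as did DESeq2 (adjusted p = 0.0736) and a fit of the Nmd3 libraries alone (0.0846) for Nmd3. Tcf7 was higher on ER ribosomes with Nmd3 siRNA (0.19, SE 0.072, adjusted p = 0.0242), and this call was lost without Nmd3 ER replicate 3 (0.17, adjusted p = 0.0683) or Nmd3 whole-cell replicate 1 (0.08, 0.477), by DESeq2 (0.0521) and in a fit of the Nmd3 libraries alone (0.0932). Its ratios were 0.08 with Gnl3 and -0.03 with scramble siRNA. Gm15401 shares 179 bases of exon with Tcf7l1 on the other strand. It stood at 8.26 to 12.3 CPM on ER ribosomes and 8.41 to 11.4 CPM in whole-cell RNA. The part of Gm15401 in the counts of Tcf7l1 was not tested.

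Lef1 had a ratio of 0.16 with Nmd3 siRNA (SE 0.078, adjusted p = 0.0921), -0.01 with Gnl3 siRNA (adjusted p = 0.925) and 0.16 with scramble siRNA (SE 0.075, adjusted p = 0.0757). These did not pass the test. Without Nmd3 ER replicate 2 the Nmd3 ratio of Lef1 did (0.19, adjusted p = 0.0469), as it did without Nmd3 whole-cell replicate 3 (0.31, 0.00412), and so did the scramble ratio without scramble whole-cell replicate 3 (0.20, 0.0391). Nkd1 had a ratio of 0.48 with scramble siRNA (SE 0.212, adjusted p = 0.0558), and 0.65 at an adjusted p of 0.0269 with the culture as a replicate block. Without scramble whole-cell replicate 1 it was 0.64 at an adjusted p of 0.0213. Sp5 and Tcf7l2 were not called with any siRNA, with ratios from -0.12 to 0.20.

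Whether a knockdown moved these ratios was read from the interaction, the ratio with a knockdown minus that with scramble siRNA. Over all genes 0.0% were called for either knockdown by edgeR, with 1078 genes for Nmd3 and 649 for Gnl3 at an unadjusted p under 0.05. DESeq2 called 2 genes for Nmd3, neither among the 9, and 0 for Gnl3, and the culture as a replicate block gave 1 gene for Nmd3. For Lef1 the change of the ratio was -0.17 for Gnl3 (SE 0.108) and 0.00 for Nmd3 (SE 0.130). The range over the 9 genes was from -0.22 (Wnt3, SE 0.303) to 0.22 (Tcf7, SE 0.101) for Nmd3 and from -0.74 (Nkd1, SE 0.302) to 0.16 (Sp5, SE 0.302) for Gnl3.

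**Figure D4:**
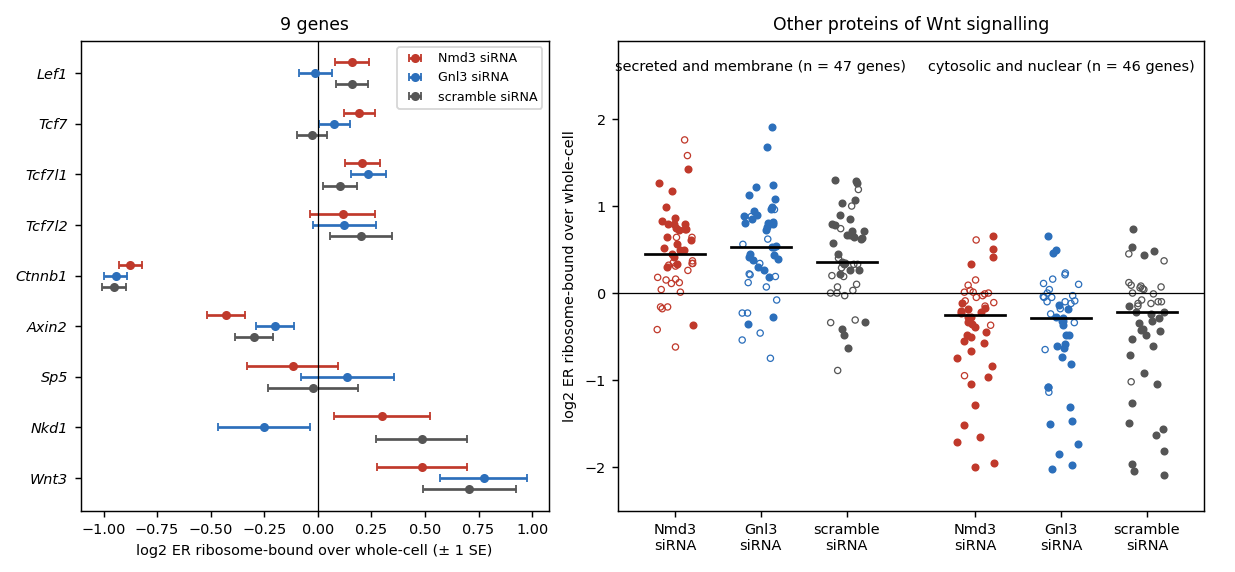
Left, log2 ratio of ER ribosome-bound over whole-cell RNA (x axis) of the 9 genes with each siRNA, as fitted values with bars of ± 1 SE. Right, the same ratio (y axis) for other secreted and membrane proteins (47 genes) and cytosolic and nuclear proteins (46 genes) of Wnt signalling, where points are genes, filled if called, and black bars are medians; the medians of the secreted and membrane list lay between 0.36 and 0.53 and those of the cytosolic and nuclear list between -0.29 and -0.22.

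Other genes of the pathway were taken from lists drawn up with earlier results of these data known. Where ratios are given for only some siRNAs, the gene was among the 3 called with the largest change in a direction there. Leaving a siRNA out does not say that the ratio differed with it. Of 59 listed genes for secreted and membrane proteins of Wnt signalling, 47 were tested. On ER ribosomes 23 of the 47 were higher than in whole-cell RNA and 1 lower with Nmd3 siRNA, 28 higher and 2 lower with Gnl3 siRNA, and 24 higher and 4 lower with scramble siRNA. Among all genes, 24.5%, 23.3% and 25.1% were called higher with Nmd3, Gnl3 and scramble siRNA. The medians of this list were 0.45, 0.53 and 0.36, beside 0.01, 0.02 and 0.02 for all genes. Sfrp2, which encodes a secreted Wnt antagonist, averaged 74.3 ± 2.77 CPM on ER ribosomes (SD, n = 3) and 30.7 ± 0.989 CPM in the whole cell (SD, n = 2) with Nmd3 siRNA, a log2 ratio of 1.26 (SE 0.07, adjusted p = 1.27e-16). Its ratios with Gnl3 and scramble siRNA were 1.24 and 1.27. Sfrp5, a related antagonist, had ratios of 1.43 with Nmd3 siRNA and 1.29 with scramble siRNA, and Rspo4, a secreted agonist, had 1.68 with Gnl3 siRNA and 1.30 with scramble siRNA. The ligand genes Wnt6 (1.17, Nmd3 siRNA) and Wnt7a (1.91, SE 0.61, Gnl3 siRNA) were also higher. Wnt7a was not called without Gnl3 whole-cell replicate 2. With Gnl3 siRNA Wnt6 averaged 3.57 CPM on ER ribosomes and 1.59 CPM in the whole cell. Wnt7a averaged 1.07 and 0.272 CPM there and Rspo4 2.34 and 0.704 CPM, so few counts lie behind these ratios.

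A few membrane proteins of that list were lower on ER ribosomes. Lrp6, the Wnt co-receptor, had ratios of -0.37, -0.36 and -0.48 with Nmd3, Gnl3 and scramble siRNA. Znrf3, a ubiquitin ligase that removes Frizzled from the cell surface, had -0.28 with Gnl3 siRNA (adjusted p = 0.0417) and -0.41 with scramble siRNA (adjusted p = 0.00315). The receptor gene Fzd1 had -0.63 with scramble siRNA (SE 0.23, adjusted p = 0.0224), but 0.32 with Nmd3 and 0.34 with Gnl3 siRNA, neither of which passed. Its scramble call was lost on leaving out any 1 of 4 of the 5 libraries (adjusted p from 0.0505 to 0.105), and that of Znrf3 on leaving out any 1 of 3 with Gnl3 siRNA (0.101 to 0.323) and without scramble ER replicate 3 (0.0908).

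All 46 listed genes for cytosolic and nuclear proteins of the pathway were tested, and most calls were lower on ER ribosomes: 27 lower and 4 higher with Nmd3 siRNA, 23 and 3 with Gnl3 siRNA, and 24 and 4 with scramble siRNA. Among all genes, 25.6%, 24.9% and 25.3% were called lower. The medians of the list were -0.25, -0.29 and -0.22. Apc, the scaffold that holds beta-catenin for degradation, averaged 22.5 ± 2.93 CPM on ER ribosomes (SD, n = 3) and 89.4 ± 6.39 CPM in the whole cell (SD, n = 2) with Nmd3 siRNA, a log2 ratio of -2.0 (SE 0.09, adjusted p = 7.21e-16). It was -2.02 with Gnl3 siRNA and -2.09 with scramble siRNA. Usp9x, a deubiquitinase, had log2 ratios of -1.95, -1.85 and -1.96 with Nmd3, Gnl3 and scramble siRNA. The chromatin remodeller gene Chd8 had ratios of -1.98 with Gnl3 siRNA and -2.04 with scramble siRNA. Macf1, a cytoskeletal linker, had a ratio of -1.71 with Nmd3 siRNA. The genes called higher with each siRNA included Nkd2, a relative of Nkd1 (0.65, 0.65 and 0.74), the casein kinase 2 subunit gene Csnk2b (0.51, 0.49 and 0.53) and Cby1, an inhibitor of beta-catenin (0.41, 0.46 and 0.48). Csnk2b and Cby1 were not called with all 17 libraries. With all 17 libraries 10, 14 and 6 genes of the first list were called higher with Nmd3, Gnl3 and scramble siRNA. In the second list 11, 16 and 12 were then called lower. Calls over all genes fell as well, to 2819, 4540 and 2353, of which 50.7%, 42.1% and 40.5% were higher.

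Another 30 genes known as targets of Wnt and beta-catenin signalling were listed, 10 of which the first 2 lists also hold, and 28 were tested for the ratio. With Nmd3, Gnl3 and scramble siRNA, 10, 12 and 10 of them were higher on ER ribosomes and 5 were lower each time. Among all genes 24.5%, 23.3% and 25.1% were higher and 25.6%, 24.9% and 25.3% lower. Notum, which encodes a secreted enzyme that inactivates Wnt proteins, had ratios of 0.72, 0.94 and 0.85. Among the other genes called higher were Fst, a secreted activin antagonist (1.02 with Nmd3 and 1.10 with Gnl3 siRNA), Apcdd1, a membrane antagonist (0.86 with Nmd3 siRNA), and the homeobox gene Msx2 (1.12 with Gnl3 and 1.00 with scramble siRNA). Those called lower included Tcf4, a basic helix-loop-helix factor that is distinct from Tcf7l2 (-0.86, -0.83 and -0.85). Ccnd2 (-0.59 with Nmd3 and -0.46 with Gnl3 siRNA) and Dact1 (-0.48 with each of these siRNAs) were also among them. With scramble siRNA T (-1.38, SE 0.43) and Sp8 (-1.09, SE 0.43) were called lower. T averaged 0.480 CPM on ER ribosomes and 1.24 CPM in the whole cell there, and Sp8 0.481 and 1.015 CPM. Few counts lie behind these 2 ratios. The Gnl3 call of Ccnd2 was lost with the culture as a replicate block (adjusted p = 0.0562), by DESeq2 (0.0588) and on leaving out any 1 of 4 of the 5 libraries (0.0564 to 0.142). The call of Sp8 was lost on leaving out any 1 of 4 of the 5 libraries (0.0599 to 0.125) and those of Msx2 (0.0589 and 0.0941), T (0.0977) and, with Gnl3 siRNA, Dact1 (0.0898) without 1 library. With all 17 libraries 7, 9 and 4 of the 28 were called higher and 1, 2 and 1 lower. Over all genes 2819, 4540 and 2353 were called in those fits. Of 6 genes that Tcf7l1 is known to hold down in mouse embryonic stem cells, 2, 2 and 3 were higher on ER ribosomes and 1, 2 and 1 lower with Nmd3, Gnl3 and scramble siRNA, and 0 of the 6 were called with all 17 libraries. The shares of all genes, and their calls with all 17 libraries, are those given for the 28. Tcl1, a co-activator of Akt, had ratios of 0.56, 0.43 and 0.49, and the transcription factor gene Tfcp2l1 had -0.69, -0.56 and -0.66.

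In the knockdown comparisons few genes of the pathway lists passed edgeR's test. The lists were drawn up with earlier results of these data known. Their counts are therefore given beside the shares of all genes as a description, and nothing is read from them. The genes named were picked because they passed with the largest changes. Their adjusted p-values, here and in the next paragraphs, are likewise a description and no test of the pathway. On ER ribosomes with Nmd3 siRNA, Tbx3, which encodes a T-box factor of naive stem cells, rose to 169.4 ± 5.09 CPM (SD, n = 3), against 135.6 ± 3.00 CPM with scramble siRNA (n = 2), a log2 fold change of 0.33 (SE 0.05, adjusted p = 0.000638). Sfrp1, a secreted antagonist, rose by 0.29 (adjusted p = 0.0182). Fbxw11, which encodes an F-box protein that recognises marked beta-catenin, fell by 0.30 (adjusted p = 0.0133), and Ccnd1 and Mycn fell by 0.24 and 0.23 (adjusted p = 0.0157 and 0.00801). These were 1 gene of 47, 1 of 46 and 3 of 27 tested in the first 3 lists, where 0.652% of all genes were higher and 0.516% lower.

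On ER ribosomes with Gnl3 siRNA, Ctnnbip1, which encodes an inhibitor that keeps beta-catenin from TCF factors, fell to 24.8 ± 0.548 CPM (SD, n = 3), against 33.9 ± 1.17 CPM with scramble siRNA (n = 2), a log2 fold change of -0.46 (SE 0.08, adjusted p = 0.0009). The cyclin gene Ccnd2 fell by 0.68 (adjusted p = 0.0316), Ccnd1 by 0.27 (adjusted p = 0.00297) and Mycn by 0.24 (adjusted p = 0.00192). Counts were 0 of 47, 1 of 46 and 3 of 27 in the first 3 lists, where 1.51% of all genes were higher and 1.17% lower. Of the 6 genes held down by Tcf7l1, 3 fell with Gnl3 siRNA: Nanog by 0.25 (adjusted p = 0.000955), Tcl1 by 0.24 (adjusted p = 0.0259) and Esrrb by 0.20 (adjusted p = 0.0035). In the same comparison 4 of the 10 stem cell markers, which include Nanog and Esrrb, were called lower, and the marker sum was 9216 to 9555 CPM with Gnl3 siRNA, against 9997 to 10280 CPM with scramble siRNA. The part of this shift in the values of the pathway genes was not tested. With Nmd3 siRNA 0 of the 6 genes and 0 of the 10 markers were called.

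These calls on ER ribosomes leaned on the scramble pair, and some also on a single knockdown library or on the method. Without scramble ER replicate 2, of the genes named for Nmd3 and Gnl3 none passed, and their adjusted p lay between 0.0684 (Tbx3, Nmd3) and 0.37 (Tcl1, Gnl3), with the same signs. Without scramble ER replicate 3, Tbx3 (Nmd3), Ctnnbip1 and Nanog (Gnl3) passed. For Gnl3, Ccnd2 also lost its call without Gnl3 ER replicate 2 (adjusted p = 0.165) or 3 (0.115) and by DESeq2 (0.0628). Tcl1 lost it without Gnl3 ER replicate 1 (0.194). For Nmd3, Sfrp1 lost it without Nmd3 ER replicate 3 (0.0531). With the replicate number as a replicate block, Sfrp1 (0.0681) and Ccnd1 (0.0672) for Nmd3 and Ccnd2 (0.0878) and Tcl1 (0.121) for Gnl3 did not pass. In whole-cell RNA edgeR called 0 genes of the 4 lists for Nmd3 or Gnl3 over scramble siRNA.

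Between the knockdowns on ER ribosomes, Nmd3 over Gnl3, 4 of the 6 genes held down by Tcf7l1 were higher and 0 lower, where 0.987% of all genes were higher and 1.21% lower. This list was drawn up with earlier results known and shares Nanog and Esrrb with the stem cell markers. Nothing is read from its count, and the adjusted p-values of the genes named are a description. Tcl1 was at 0.40 (SE 0.05, adjusted p = 7.55e-05), Nanog at 0.34 (SE 0.04, adjusted p = 4.7e-06) and Tfcp2l1 at 0.19 (SE 0.05, adjusted p = 0.0219). Tfcp2l1 was also higher in whole-cell RNA (0.32, SE 0.07, adjusted p = 0.0255). Ctnnbip1 (0.50), Tbx3 (0.36) and Sfrp1 (0.25) were higher on ER ribosomes, and the transcription factor gene Jun (-0.52), the receptor genes Lgr4 (-0.24) and Fzd5 (-0.17), Fbxw11 (-0.21) and the co-repressor gene Tle4 (-0.18) were lower. Of the 10 stem cell markers, 2 were called higher here. Several of these calls were lost when 1 library was left out. Fbxw11 (adjusted p = 0.0489) was not called on leaving out any 1 of 5 of the 6 libraries (0.0844 to 0.222), by DESeq2 (0.0553) or with the replicate number as a replicate block (0.0891). Sfrp1 was not called on leaving out any 1 Gnl3 library (0.0522 to 0.0811). The call was lost on leaving out any 1 of 4 libraries for Fzd5 (0.0687 to 0.226) and Tfcp2l1 (0.106 to 0.119) and on leaving out any 1 of 3 for Tle4 (0.0941 to 0.199). In whole-cell RNA Tfcp2l1 lost it on leaving out any 1 of 3 of the 4 libraries (0.143 to 0.412).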

How the data were processed

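RNA was sequenced from 17 libraries with a strand-keeping kit and paired reads, per the labels' protocols. The authors deposited 1 table of raw gene counts per library; per the submitters' processing notes STAR 2.7.9a, HTSeq 0.11.2, DESeq2 and the build GRCm39 were used, and the strand setting of counting is not given in the sources used here. Gene counts summed to 15.2 to 29.9 M per library after the 5 lines that name no gene were left out. Reads in no gene made up 46.6% to 48.3% of the deposited total, reads not placed uniquely 5.11% to 10.2% and ambiguous reads 0.357% to 0.568%. GENCODE M21 gave symbols for 52083 of 55416 gene IDs and exon lengths, and RefSeq on GRCm38.p6 gave the promoter windows. No coordinate of one build was converted to the other.

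The main test was edgeR 4.0.16 (R 4.3.3), its quasi-likelihood test on raw counts with filterByExpr, TMM scaling and Benjamini-Hochberg adjustment over all genes tested, called at an adjusted p under 0.05. Standard errors were taken as the log2 fold change over the root of F. ER ribosome-bound RNA was compared with whole-cell RNA in a fit of 15 libraries (18271 genes), and siRNAs were compared within the 8 ER libraries (17632 genes) and within 7 whole-cell libraries (17490 genes). Levels are CPM from gene count totals; scaling by TMM moved no group mean of the 9 genes by more than 3.6%. The members and lists were chosen with earlier results of these data known. The genes named are the 9 members, up to 3 called genes of each list with the largest change in each direction of each comparison, and the 5 highest and 3 lowest genes by r with Lef1 (log2 CPM with a prior count of 2). In simulated counts only genes with a mean above 5 CPM were changed, a level that Sp5 and Nkd1 did not reach. Wnt3 stayed below it in every scramble library (at most 4.07 CPM) and every whole-cell library used (at most 3.82 CPM). After the knockdowns its ER libraries lay on both sides of that level. The shares recovered are therefore not taken to cover Sp5, Nkd1 or Wnt3. The test of Nmd3 over scramble siRNA on ER ribosomes recovered 76.1% of 67 genes changed by 0.5 on the log2 scale. Of 67 changed by 1 it recovered 95.5%, with 16 false calls among 17354 genes. With ER over whole-cell RNA after scramble siRNA, 71.6% of 67 genes changed by 0.5 were recovered.

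ER and whole-cell libraries of 1 siRNA and number come from 1 lysate by the study's design, which pairs them. Their deviations from the group means correlated at -0.04 to 0.11, and a fit with the culture as a replicate block was an alternative. Other alternatives were all 17 libraries, DESeq2 size factors, library totals, DESeq2 1.42.0, no filter on low counts, other sets of libraries in the fit, and each library left out in turn.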

Additional observations from a re-analysis of the deposited data

Results flagged for a closer look

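In the 2 whole-cell libraries that the comparisons left out, 3 of the 9 genes stood above the highest scramble whole-cell library. Tcf7 was at 77.9 CPM in Gnl3 replicate 3, against at most 71.3 CPM with scramble siRNA. Tcf7l1 was at 68.7 CPM in the same library, against at most 60.0 CPM with scramble siRNA. Tcf7l2 was at 11.4 CPM in Nmd3 replicate 2, against at most 11.2 CPM with scramble siRNA. In Nmd3 replicate 2 the opposite-strand gene Gm43352 stood at 1.58 CPM, where both other Nmd3 whole-cell libraries held 18.1 and 18.3 CPM.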

How the results depend on the processing

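With all 17 libraries, 2819 genes (Nmd3), 4540 (Gnl3) and 2353 (scramble) were called between ER ribosomes and whole-cell RNA, against 9152, 8795 and 9197 without them, and edgeR called 0 genes in each of the 3 whole-cell comparisons, against 29, 142 and 37. The share called higher with scramble siRNA was then 40.5%, against 49.8%, and the median of all genes with Nmd3 siRNA was -0.108, against 0.01. Of the 5 genes most like Lef1, 1 was the same. With the replicate number as a replicate block, which across siRNAs is only a shared number (correlations of -0.12 to 0.08), 126 genes were called for Nmd3 over scramble on ER ribosomes, 258 for Gnl3 over scramble and 63 for Nmd3 over Gnl3 in whole-cell RNA, against 206, 472 and 37. Without the filter on low counts there were 407 and 115 for Nmd3 over scramble on ER ribosomes and in whole-cell RNA, 586 and 122 for Nmd3 over Gnl3, and 14 and 1 for the change of the ratio with Nmd3 and Gnl3. One fit of 15 libraries gave 57 for Nmd3 over Gnl3 in whole-cell RNA. The change of the ratio with Nmd3 had 1 call with the culture as a replicate block, 1 with library totals and 2 with DESeq2. With library totals 34.8% of calls for Nmd3 over Gnl3 on ER ribosomes were higher, against 45%. The culture block changed no call of the 9 genes other than those of Tcf7l1 and Nkd1 given above. The cause of these shifts was not tested.

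Leaving out each library in turn gave 23 to 366 calls for Nmd3 over scramble on ER ribosomes and 8 to 1024 in whole-cell RNA, 70 to 299 and 17 to 66 for Gnl3 over scramble, 159 to 703 and 7 to 983 for Nmd3 over Gnl3, and 0 to 304 and 0 to 0 for the change of the ratio with Nmd3 and Gnl3. Several values near 0 turned sign. With all 17 libraries the ratio became -0.17 for Tcf7l2 and -0.01 for Nanog with Nmd3 siRNA and -0.07 for Tcf7 with Gnl3 siRNA, and Nmd3 itself changed by 0.39 in whole-cell RNA with Gnl3 siRNA and by -0.39 in its ratio. With the culture block the ratio of Sp5 with Nmd3 siRNA was 0.03, and the change of the Gnl3 ratio was -0.06. With library totals the ratio of Lef1 with Gnl3 siRNA was 0.03 and that of Sp5 with scramble siRNA 0.00. Without single libraries the ratio ranged from -0.28 to 0.03 (Nmd3 siRNA) and -0.15 to 0.06 (scramble siRNA) for Sp5, from -0.07 to 0.05 for Lef1 and -0.45 to 0.01 for Nkd1 with Gnl3 siRNA, and from -0.07 to 0.00 for Tcf7 with scramble siRNA. On ER ribosomes the change of Gnl3 with Nmd3 siRNA ranged from -0.02 to 0.37 and that of Nmd3 with Gnl3 siRNA from -0.04 to 0.01, and the changes of their ratios from -0.05 to 0.33 and -0.00 to 0.09.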
